A study of Mus musculus with 3 samples.

Results

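The bone matrix and osteolineage genes followed here are 10 named genes: the type I collagen genes Col1a1 and Col1a2, the matrix protein genes Sparc, Bgn, Bglap, Spp1 and Ibsp, the phosphatase gene Alpl, the transcription factor gene Runx2, and Acta2, which encodes smooth muscle α-actin. They were found by gene symbol, each had 1 row, and together they are 10 of the 17250 gene names in the tables. The tables come from bone marrow (BM) cells of C57BL/6 mice aged 6 to 8 weeks. The mice received the cytokine LECT2, as recombinant protein from Chinese hamster ovary cells, under the skin once a day at 300 μg per kg of body weight for 3 or 5 days, and the third group is labelled 0 days, with no vehicle named. Each time point was 1 library, so no difference described below has a replicate check and no test of the conditions was possible. How many mice went into a library is not given in the sources used here.

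Osteoblasts build bone by secreting a scaffold that consists mostly of type I collagen, into which they place smaller acidic proteins that bind collagen and calcium and take part in the deposition of mineral. Runx2 is the transcription factor that commits mesenchymal progenitors to this lineage, and osteocalcin, the product of Bglap, marks its late stages. In the marrow, cells of the same lineage also form part of the niche that holds haematopoietic stem cells. The study places CD209a, a receptor for LECT2, on macrophages and osteolineage cells, so the question here is what the transcripts of osteolineage cells did in the marrow of treated mice. The marrow was flushed out of femur, tibia, pelvis and humerus, and most osteoblasts and osteocytes sit on or in the bone, from which they are usually freed by digestion with collagenase. The libraries therefore report on the osteolineage cells that came away with the marrow, and on other cells that make the same transcripts.

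At 5 days of LECT2, 8 of the 10 genes were at least 2-fold lower than at 0 days, beside 5.91% of all genes counted, and none was at least 2-fold higher, beside 15.5%. The exceptions were Alpl, which had the same level at both times within counting error, and Runx2, which had too few reads to be counted. At 3 days none of the 9 genes with enough reads had moved by 2-fold, beside 2.41% of all genes lower and 4.08% higher. The time course was not the same for all of them: Col1a1 was at its highest level at 3 days, Spp1 and Ibsp were already lower then, and Sparc and Acta2 had about the same level as at 0 days.

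The promoters of Bglap and Spp1 are shown because, of the bone matrix genes among the 10, they had the lowest deposited ratios at 5 days, and because both windows hold a motif of interest. Each covers the 250 bases before the transcription start in RefSeq (GRCm38.p6), and neither touches an annotated exon in GENCODE M21. The Bglap window is chr3:88384467-88384716 on the minus strand and the Spp1 window is chr5:104434861-104435110 on the plus strand, both printed 5′ to 3′ along the gene. Capitals mark the TATA box letters TATAAA in both and the RUNX motif AACCACA in Spp1.
Bglap: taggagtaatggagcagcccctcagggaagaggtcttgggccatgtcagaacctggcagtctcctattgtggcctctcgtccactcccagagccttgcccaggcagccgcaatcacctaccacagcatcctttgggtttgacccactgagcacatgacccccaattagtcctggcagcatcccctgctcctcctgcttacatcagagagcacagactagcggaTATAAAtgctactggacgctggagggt
Spp1: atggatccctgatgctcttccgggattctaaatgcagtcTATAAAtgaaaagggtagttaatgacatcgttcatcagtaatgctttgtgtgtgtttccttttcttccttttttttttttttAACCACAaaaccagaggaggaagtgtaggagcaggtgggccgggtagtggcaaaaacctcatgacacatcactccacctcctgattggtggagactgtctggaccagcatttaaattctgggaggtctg

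Promoter windows were found for 9 of the 10 genes, 11 windows in all, and positions are counted from the RefSeq start. The windows of Ibsp, Col1a2, Sparc, Runx2 and Acta2 and the second window of Spp1 overlap exons annotated in GENCODE M21. There Ibsp starts at 104299171, inside its window, so its matches nearer the RefSeq start lie within the annotated gene. The RUNX motif, searched on both strands, was present in Spp1, 129 to 123 bases before the start, and in Runx2 itself, 81 to 75 bases before the start, and 4.4% of all 32851 promoter windows hold it. The TATA box letters lay 27 to 22 bases before the start of Bglap and 28 to 23 bases before that of Ibsp, the latter on the opposite strand. They were also found further upstream in Spp1, 211 to 206 bases before the start, and in the second window of Alpl, and in 12.4% of all promoters. The GC box GGGCGG was found in Alpl, as 2 overlapping matches, in Col1a2 and Bgn and in 32.7% of all promoters. The cyclic AMP response element TGACGTCA was found in none of the 11 windows and in 1.55% of all promoters. The CArG box, a motif of smooth muscle genes, was searched as CCWWWWWWGG with W for A or T. This exact form was in none of the 11 windows either, and in 1.47% of all promoters. The Acta2 window does hold the near forms ccctatatgg and ccttgtttgg, which have a C or a G at a W and were not counted. All motifs were searched as exact letters. Thus taccaca in the Bglap window, which differs from the RUNX motif in its first letter, was not counted. Such matches describe letters in a window and not binding, and a window without a match may hold a near form.

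Levels are given as RPKM, the reads on a gene scaled to its length and to the depth of the library. The libraries of 0, 3 and 5 days held 15523952, 15146983 and 15514673 reads on genes, and counts per 1000000 of these reads are abbreviated as CPM. Differences are log2 ratios of RPKM + 0.1, which understate the change of low genes. A gene was counted in a comparison when it reached 1 RPKM in either library, and was called when the ratio was at least 2-fold. A low gene could thus be counted through the library where it was higher alone, in the lists below as well. The 95% intervals are exact (Clopper-Pearson for the ratio of the reads in both libraries, Poisson for a level), and they cover counting error only. Reads copied by PCR and not tagged by molecule are not independent, so the intervals may be too narrow even for counting error. Over all genes counted, the median log2 ratio was 0.09 for 3 against 0 days, 0.31 for 5 against 0 days and 0.25 for 5 against 3 days. A gene with no difference in the deposited values thus lay below most other genes.

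**Figure D1:**
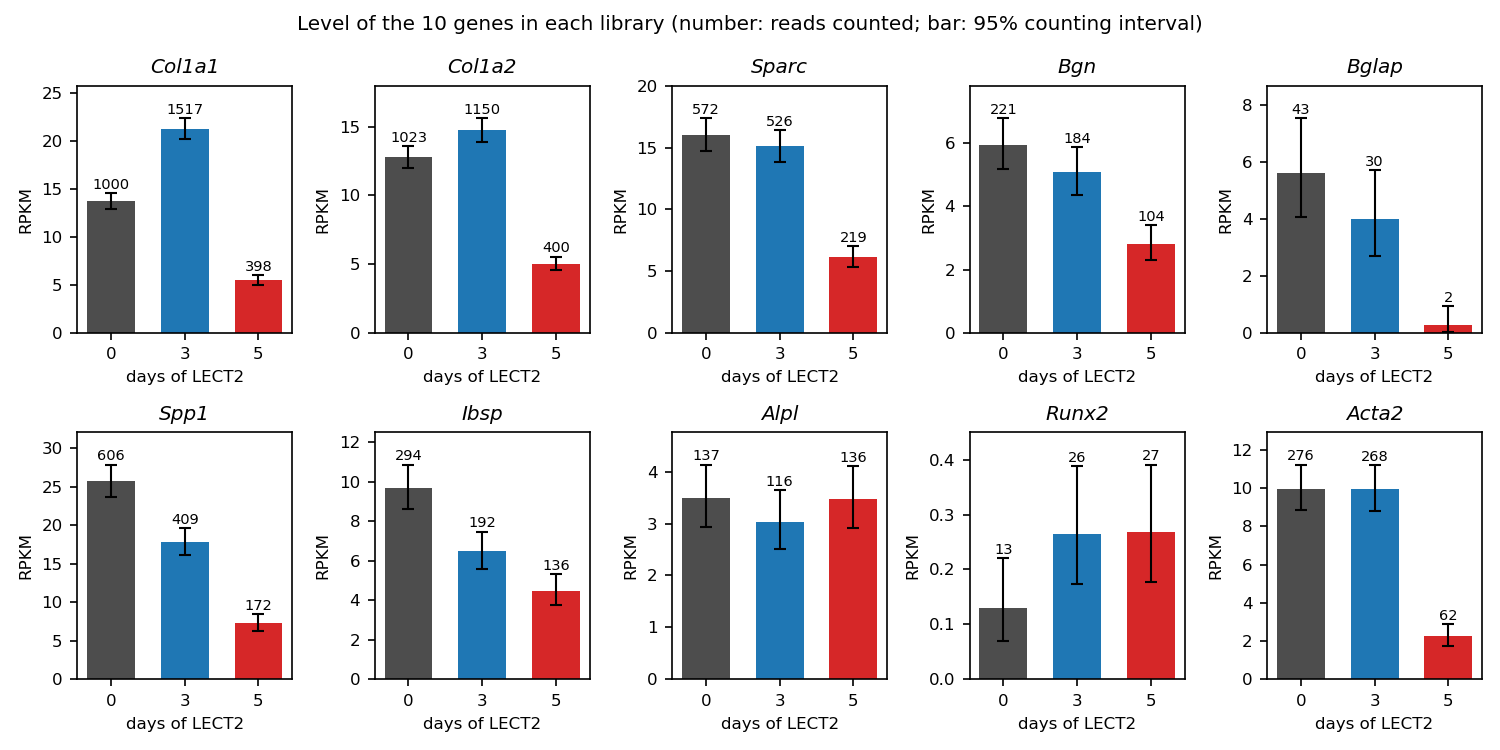
RPKM of the 10 genes (vertical axis of each panel, starting at 0) after 0, 3 and 5 days of LECT2, 1 library per bar, with the 95% exact Poisson interval of the reads and the number of reads above each bar. Col1a1 and Col1a2 are highest at 3 days, Spp1 and Ibsp step down at each time, Sparc and Acta2 are lower at 5 days only, and Alpl stays between 3.04 and 3.50 RPKM.

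Type I collagen is a triple helix of chains from Col1a1 and Col1a2, and it makes up most of the organic matter of bone. Col1a1 had 1000, 1517 and 398 reads in the libraries of 0, 3 and 5 days, which are 13.7, 21.3 and 5.45 RPKM. It was therefore highest in the 3-day library and lowest in the 5-day library, and the 3 intervals of the level do not overlap. At 3 days its log2 ratio against 0 days was 0.63 (0.52 to 0.75), or 0.54 above the median of all genes. At 5 days the ratio was -1.31 (-1.50 to -1.16), and the CPM was 39.8% of that at 0 days.

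The reads of Col1a2 in the same order were 1023, 1150 and 400, or 12.8, 14.8 and 5.01 RPKM. The library of 5 days again stood apart, whereas those of 0 and 3 days were close. The log2 ratio was 0.20 (0.08 to 0.33) at 3 days, and it became -0.20 when the trend of the ratio with gene length was removed, so no direction at 3 days can be given for this gene. At 5 days the ratio was -1.34 (-1.52 to -1.19).

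Because both chains enter the same protein, their ratio was also computed. Col1a1 stood to Col1a2, in RPKM, as 1.07 (0.978 to 1.17) at 0 days, 1.44 (1.33 to 1.56) at 3 days and 1.09 (0.944 to 1.25) at 5 days. The chains were thus at similar levels before and after, with more Col1a1 at 3 days beyond counting error. Both genes together came to 130, 176 and 51.4 CPM.

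Sparc (osteonectin) binds collagen and calcium in the matrix and is also made by megakaryocytes and endothelial cells. It had 572, 526 and 219 reads, or 16.0, 15.1 and 6.14 RPKM. The first 2 libraries overlapped within counting error, with a log2 ratio of -0.08 (-0.26 to 0.09), and the 5-day library lay below both. The ratio at 5 days was -1.37 (-1.62 to -1.16) against 0 days and -1.28 (-1.53 to -1.07) against 3 days.

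Bgn (biglycan) is a small leucine-rich proteoglycan of bone and other connective tissue. Its reads were 221, 184 and 104, which are 5.96, 5.08 and 2.81 RPKM. The levels of 0 and 3 days overlapped, and the 5-day level lay below both. The log2 ratio at 5 days was -1.06 (-1.44 to -0.74), which just passes 2-fold, and between 3 and 5 days it was -0.84 (-1.22 to -0.50), which does not.

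The genes of the acidic proteins that accompany mineral came next. Spp1 encodes osteopontin, a phosphoprotein that osteoblasts, osteoclasts and macrophages secrete. It had 606, 409 and 172 reads, or 25.7, 17.8 and 7.31 RPKM, so that each library was lower than the one before it and no intervals overlap. Against 0 days the log2 ratio was -0.53 (-0.72 to -0.35) at 3 days and -1.80 (-2.07 to -1.57) at 5 days. Spp1 was the most abundant of the 10 genes at 0 days.

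Ibsp encodes bone sialoprotein, which nucleates hydroxyapatite and is largely restricted to mineralizing tissue. It lies in the same gene cluster as Spp1 on chromosome 5, where GENCODE M21 places it at 104299171 to 104311469 (GRCm38), 123648 bases before Spp1. Its reads were 294, 192 and 136, or 9.69, 6.48 and 4.48 RPKM. The 0-day library was above the others, and the intervals of the 3-day and 5-day libraries did not overlap. The log2 ratio was -0.57 (-0.85 to -0.31) at 3 days and -1.09 (-1.42 to -0.81) at 5 days.

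The Spp1 level was 2.66 times that of Ibsp at 0 days (2.31 to 3.06), 2.75 times at 3 days (2.31 to 3.28) and 1.63 times at 5 days (1.29 to 2.06). The ratio between Spp1 and Ibsp was thus the same within counting error in the first 2 libraries, and lower in the last.

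Bglap encodes osteocalcin, the vitamin K-dependent protein of mature osteoblasts. Only 43, 30 and 2 reads were counted on it in turn, or 5.61, 4.01 and 0.261 RPKM over its short length of 494 bases. The first 2 libraries overlapped, and the 5-day library lay below both. The CPM of the 5-day library was 4.65% of that at 0 days, a log2 ratio of the counts of -4.43 (-7.52 to -2.48), and on the scale with the pseudocount the ratio was -3.98. With 2 reads, the size of this difference is poorly fixed.

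Bglap has a near-identical copy, Bglap2, beside it, and reads may have been split or shared between them. On chromosome 3 the GENCODE M21 positions (GRCm38) are 88383501 to 88384464 for Bglap and 88377736 to 88378699 for Bglap2, with 4801 bases between them. Bglap2 had 12, 6 and 2 reads, fewest in the 5-day library as for Bglap, and its log2 ratio of the counts at 5 days had an interval of -5.79 to -0.42.

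Alpl encodes tissue-nonspecific alkaline phosphatase, which hydrolyses the mineralization inhibitor pyrophosphate and is also found in other marrow cells. It had 137, 116 and 136 reads, or 3.50, 3.04 and 3.48 RPKM, and all 3 intervals overlapped. The log2 ratio at 5 days was -0.01 (-0.36 to 0.34) as deposited and -0.31 after scaling by TMM, which sets the bulk of genes to no change. Counting error alone thus leaves room for a change of either sign in Alpl, but its interval did not reach a 2-fold decrease. Relative to Alpl, Sparc went from 4.58 times its level at 0 days (3.79 to 5.56) and 4.97 times at 3 days to 1.77 times at 5 days (1.42 to 2.20), and Col1a1 from 3.91 and 7.001 times to 1.57 times (1.29 to 1.92). These ratios within a library do not depend on its scaling.

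Runx2 was close to the lower end of what this depth can measure. It had 13, 26 and 27 reads, or 0.129, 0.265 and 0.269 RPKM over 6475 bases, which left it under the minimum of 1 RPKM in all libraries. The log2 ratio of the counts at 5 days was 1.06 (0.05 to 2.13). With the pseudocount it was 0.69, and with the trend on gene length removed it was -0.091, so that no direction can be given. Of the 10 genes it is the only one that encodes a transcription factor.

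Acta2 encodes the actin of smooth muscle and of contractile stromal cells, including pericytes and a population of mesenchymal progenitors, and some marrow macrophages also carry it. It had 276, 268 and 62 reads, or 9.99, 9.94 and 2.25 RPKM. The libraries of 0 and 3 days could not be told apart, with a log2 ratio of -0.01 (-0.25 to 0.24), and the 5-day library lay far below both. The ratio of -2.10 (-2.58 to -1.75) at 5 days was lower than that of any of the other genes but Bglap.

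**Figure D2:**
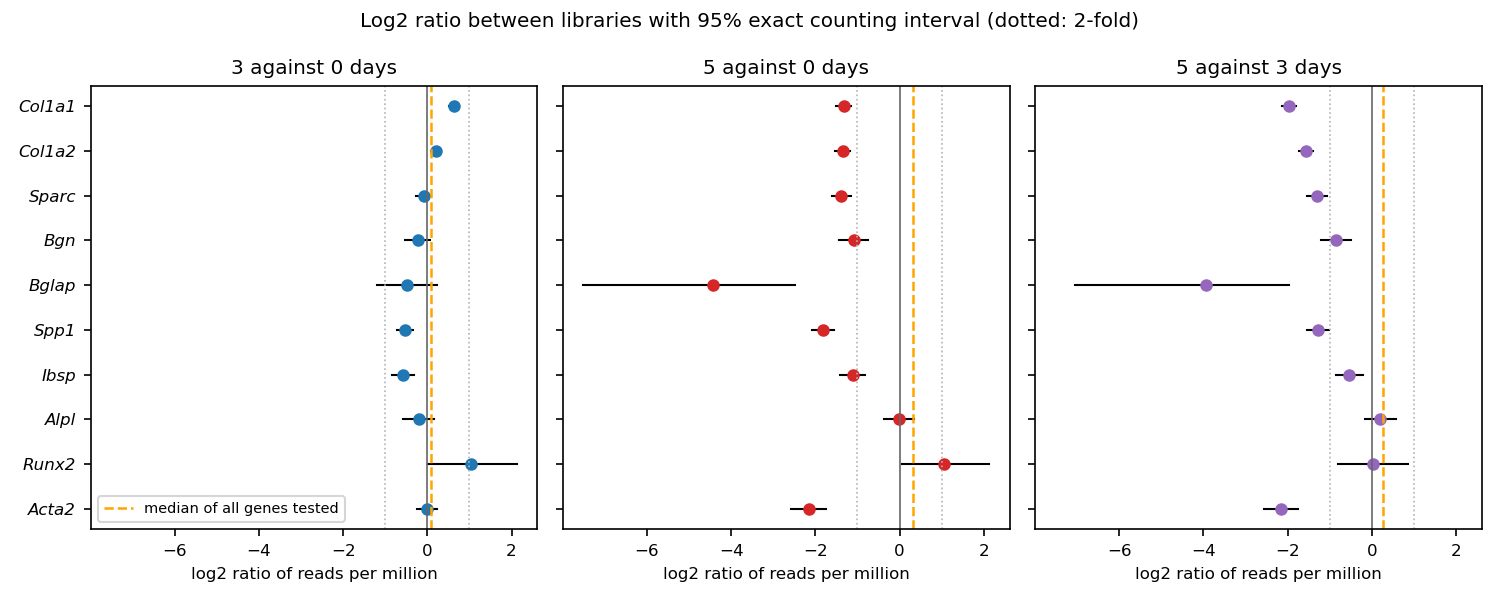
Log2 ratio of CPM (horizontal axis) for the 10 genes between each pair of libraries, with the 95% exact interval; the dashed line is the median of all genes counted and the dotted lines are 2-fold. At 3 against 0 days all 9 genes that were counted lie within 2-fold, and at 5 against 0 days the points of 8 genes lie to the left of the 2-fold line, with Alpl at zero and Runx2 to the right.

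Between 3 and 0 days 0 of the 9 genes counted were at least 2-fold lower and 0 were higher, where 2.41% of all 11325 genes counted were lower and 4.08% higher. Between 5 and 0 days 8 of 9 were lower, beside 5.91% of all 11497 genes, and 0 were higher, beside 15.5%. Between 5 and 3 days 6 of 9 were lower, beside 3.45% of all 11375 genes, and 0 were higher, beside 1.95%. The 3 that missed the threshold in this last comparison were Bgn, Ibsp and Alpl, and with TMM, median-of-ratios scaling or the length trend removed Bgn passed it too, which made the count 7. Over all 10 genes, Runx2 included, the median log2 ratio was -0.14 at 3 days, -1.32 at 5 days and -1.28 between 3 and 5 days. Scaling by TMM took the share of all genes called at 5 days to 10.2% lower and 7.13% higher, and the 8 genes stayed past 2-fold. With a pseudocount of 1 RPKM the count was 6, since Bgn at -0.87 and Ibsp at -0.96 were then short of 2-fold. At a fold of 4, Bglap and Acta2 were the 2 lower genes both against 0 days, beside 1.62% of all genes, and against 3 days, beside 0.923%. Every call involves the 5-day library, and in the comparison without it none was made.

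The 10 genes together had 4185, 4418 and 1656 reads at the 3 times, which are 270, 292 and 107 CPM. Type I collagen supplied 48.3%, 60.4% and 48.2% of them. The other 8 genes gave 139, 116 and 55.3 CPM. Their log2 ratio of -0.27 (-0.36 to -0.18) at 3 days stood beside 0.43 (0.35 to 0.52) for collagen, and at 5 days the ratios were -1.33 and -1.34. The ratios at 3 days also followed a trend with gene length. With this trend removed, Col1a1 was at 0.27 and Col1a2 at -0.20, and of the others Ibsp was at -0.53, Spp1 at -0.35, Alpl at -0.29, Bgn at -0.28, Sparc at -0.12, Acta2 at 0.088, Bglap at 0.15 and Runx2 at 0.19. In RNA from a mixture such as flushed marrow, fewer cells of a type and less RNA per cell cannot be told apart, and so these values do not say which of these the decreases reflect.

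The order of the levels also shifted. At 0 days Spp1 was highest, followed by Sparc, Col1a1, Col1a2, Acta2, Ibsp, Bgn, Bglap, Alpl and Runx2, and the neighbours Col1a1 and Col1a2, Acta2 and Ibsp, Bgn and Bglap, and Bglap and Alpl overlapped in their intervals. At 3 days Col1a1 was above all others. Spp1, Sparc and Col1a2 overlapped in turn below it, and so did Ibsp, Bgn, Bglap and Alpl below Acta2. At 5 days each neighbour from Spp1 down through Sparc, Col1a1, Col1a2, Ibsp, Alpl and Bgn to Acta2 overlapped the next, between 7.31 and 2.25 RPKM. Runx2 and Bglap, which overlapped each other, lay below these. Alpl went from the ninth place to the sixth.

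The ratios also varied with gene length. When genes with a mean of 1 RPKM or more were put into 10 classes of length, the median log2 ratio at 5 days went from -0.43 in the class of up to 1050 bases to 0.85 in the class from 5801 bases on. Bglap, the shortest of the 10 genes, and Runx2, the longest, were at either end of this trend. With the trend removed, the ratio at 5 days was -1.95 for Col1a1, -2.01 for Col1a2, -3.32 for Bglap, -1.82 for Spp1 and -2.21 for Acta2. The long collagen genes thus stood further below genes of their own length than the deposited ratios show, and Bglap less far.

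**Figure D3:**
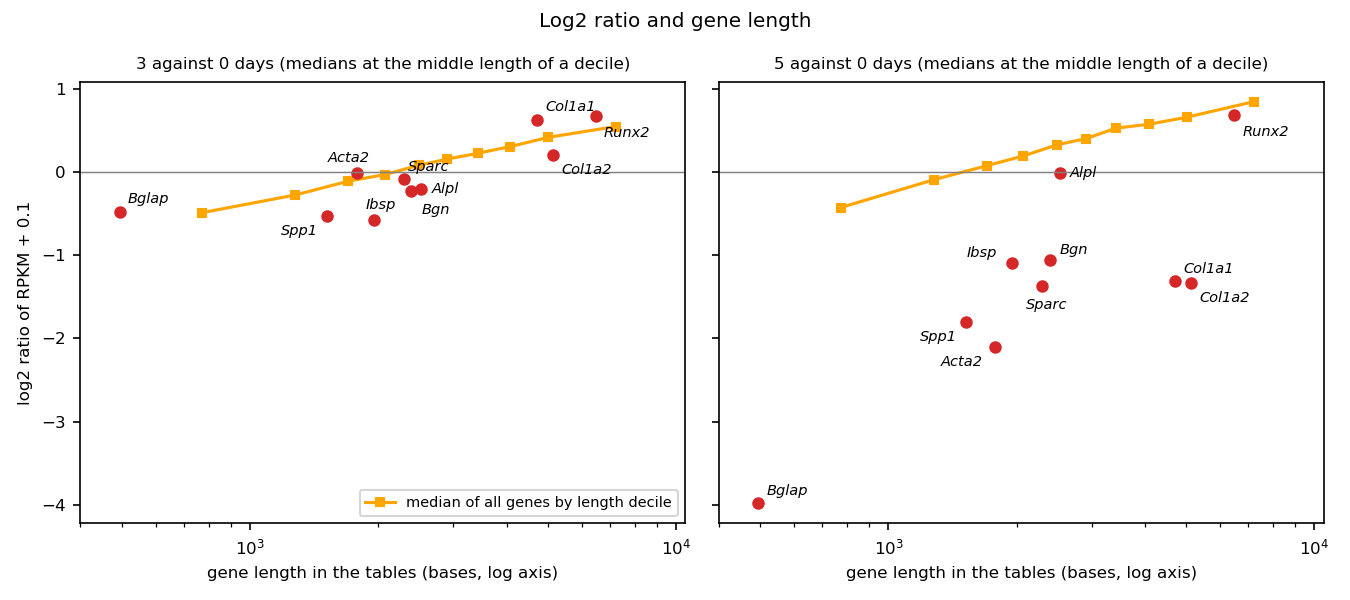
Log2 ratio of RPKM + 0.1 (vertical axis) against the gene length in the tables (log axis) at 3 and at 5 days, for the 10 genes (red points) and for the median of all genes in each of 10 length classes (orange squares). At 3 days the 10 genes lie within 1 unit of the line of medians, with Ibsp and Spp1 furthest below it. At 5 days 8 of them lie more than 1 unit below it, with Alpl a little below and Runx2 on it.

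The other genes of the lineage did not move as a block. The lists of osteoblast transcription factors, mineralization genes, matrix genes, collagen processing genes and BMP and Wnt signalling genes hold 94 further genes. Of these, 90 had a row and 38 reached 1 RPKM at 0 or 5 days. Against 0 days, 8 of the 38 were lower by 2-fold or more at 5 days and 9 were higher, with a median log2 ratio of 0.49, or 0.19 with TMM and 0.03 with the length trend removed. Among all genes counted, these shares were 5.91% and 15.5% and the median 0.31.

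Among the transcription factors only 2 genes reached the minimum and neither was called. Atf4, a stress-responsive factor that osteoblasts need for collagen synthesis, had 448, 291 and 257 RPKM at 0, 3 and 5 days, and Cbfb, the binding partner of all RUNX proteins, had 37.4, 55.7 and 72.2 RPKM. Both are expressed well beyond bone. Of the more bone-restricted factors, named after their values were seen, Sp7 (osterix) had 7, 15 and 2 reads and Dlx5 had 5, 3 and 1. Zfp521 had 27, 48 and 39 reads.

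Of the mineralization genes other than the members, 4 of 7 were lower at 5 days and 1 was higher, with a median of -1.17, or -0.64 with the length trend removed. All 4 lower genes reached 1 RPKM at 0 days but not at 5 days. The minimum thus admitted them through the library where they are high, and the count and the median rest on this. Phex, an endopeptidase of osteoblasts and osteocytes that controls phosphate handling, had 231, 58 and 29 reads, or 2.38, 0.611 and 0.298 RPKM, and was already lower at 3 days. Phospho1, the phosphatase of matrix vesicles, had 57, 138 and 42 reads, with its highest level at 3 days as for Col1a1. Ank, which exports pyrophosphate, was the higher gene with 5.72, 7.95 and 11.8 RPKM, and Enpp1, which makes pyrophosphate, had 1.36, 1.64 and 2.24 RPKM. The other lower genes, named after their values were seen, were Bglap2, Tnfsf11 (RANK ligand, the osteoclast differentiation factor) with 51, 16 and 6 reads, and Mgp (matrix Gla protein) with 17, 12 and 7 reads, whose interval of -2.79 to 0.06 reaches no change. Other genes of this list had few reads and stayed below 1 RPKM in all libraries. Of these, Dmp1 had 3, 12 and 6 reads, Sost had 2, 0 and 0 and Mepe had 0, 1 and 0. Pdpn had 20, 12 and 1 reads, Pth1r had 21, 5 and 6 and Smpd3 had 37, 31 and 17. At 5 against 0 days the intervals were -9.69 to -1.68 for Pdpn, -3.40 to -0.45 for Pth1r and -2.04 to -0.26 for Smpd3. Omd had 25, 23 and 23 reads, and the intervals of Omd and Dmp1 spanned no change. The genes from Dmp1 to Omd were also named after their values were seen.

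The matrix list was mixed, with 2 of 6 genes lower and 2 higher and a median of -0.48, which became -0.78 with TMM and -1.29 with the length trend removed. Fn1 (fibronectin), which many cell types secrete, had 25.9, 102 and 223 RPKM, and Vcan (versican), a large proteoglycan, had 0.850, 2.94 and 10.6 RPKM. Both were thus many times higher at 5 days, while the lower genes, Dcn (decorin) with 54, 30 and 12 reads and Col6a1 with 71, 46 and 25 reads, were named after their values were seen. Dcn and Col6a1 reached 1 RPKM at 0 days but not at 5 days, and for Vcan it was the reverse. The minimum thus admitted these genes through the library where they are high. Col5a1, a minor fibrillar collagen that copolymerizes with type I, had 139, 138 and 137 reads. Thbs1 (thrombospondin 1) had 188, 265 and 97.4 RPKM.

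The genes that fold, secrete and crosslink collagen were mixed. Of 13 such genes, 1 was lower and 3 were higher at 5 days, with a median of 0.65, which became 0.34 with TMM and 0.17 with the length trend removed. P4hb, the subunit of prolyl hydroxylase that also serves as protein disulfide isomerase, had 158, 181 and 278 RPKM, and Plod3, a lysyl hydroxylase, had 15.1, 21.9 and 34.4 RPKM. Ppib (cyclophilin B) had 57.8, 53.0 and 62.7 RPKM and Mia3, which loads procollagen into carriers, had 11.3, 16.6 and 19.9 RPKM. Most of these genes serve secretion in all cells. The lower gene was Pcolce, which enhances procollagen cleavage, with 40, 20 and 13 reads. Of the genes that were not called, Serpinh1, the collagen chaperone, had 114, 88 and 73 reads with a log2 ratio of -0.62 (-1.09 to -0.21). Creb3l1, a transcription factor of the secretory pathway in osteoblasts, had 142, 128 and 78 reads with a ratio of -0.83 (-1.28 to -0.45). Loxl2, a collagen crosslinking enzyme, had 154, 100 and 90 reads with a ratio of -0.72 (-1.17 to -0.39). In the other direction, Sec24d, of the coat of secretory vesicles, had a ratio of 1.26 (1.04 to 1.52) and Lepre1, a prolyl hydroxylase, 1.11 (0.65 to 1.76), and with Plod3 these were the 3 higher genes. Crtap, the partner of that hydroxylase, had a ratio of 0.78 (0.52 to 1.06) and Plod1, a lysyl hydroxylase, 0.65 (0.42 to 0.91). Pcolce and the genes after it were named after their values were seen.

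Of 10 BMP and Wnt signalling genes, 1 was lower and 3 were higher, with a median of 0.98, which became 0.67 with TMM and 0.31 with the length trend removed. The Wnt co-receptor genes Lrp5 and Lrp6 had 3.57, 6.17 and 11.7 RPKM and 3.69, 5.57 and 7.31 RPKM. Ctnnb1 (β-catenin) had 33.5, 46.5 and 66.7 RPKM and Smad5, a BMP signal transducer, had 3.72, 4.86 and 7.48 RPKM. The BMP receptor genes differed from each other, with 195, 224 and 72 reads for Bmpr1a, the lower gene, and 22, 98 and 162 reads for Bmpr2, which was higher, with a log2 ratio of 2.61 (2.23 to 3.60). With Lrp5, the third higher gene was Lef1, a transcription factor of the Wnt pathway, with 281, 421 and 575 reads. Bmpr1a, Bmpr2 and Lef1 were named after their values were seen.

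**Figure D4:**
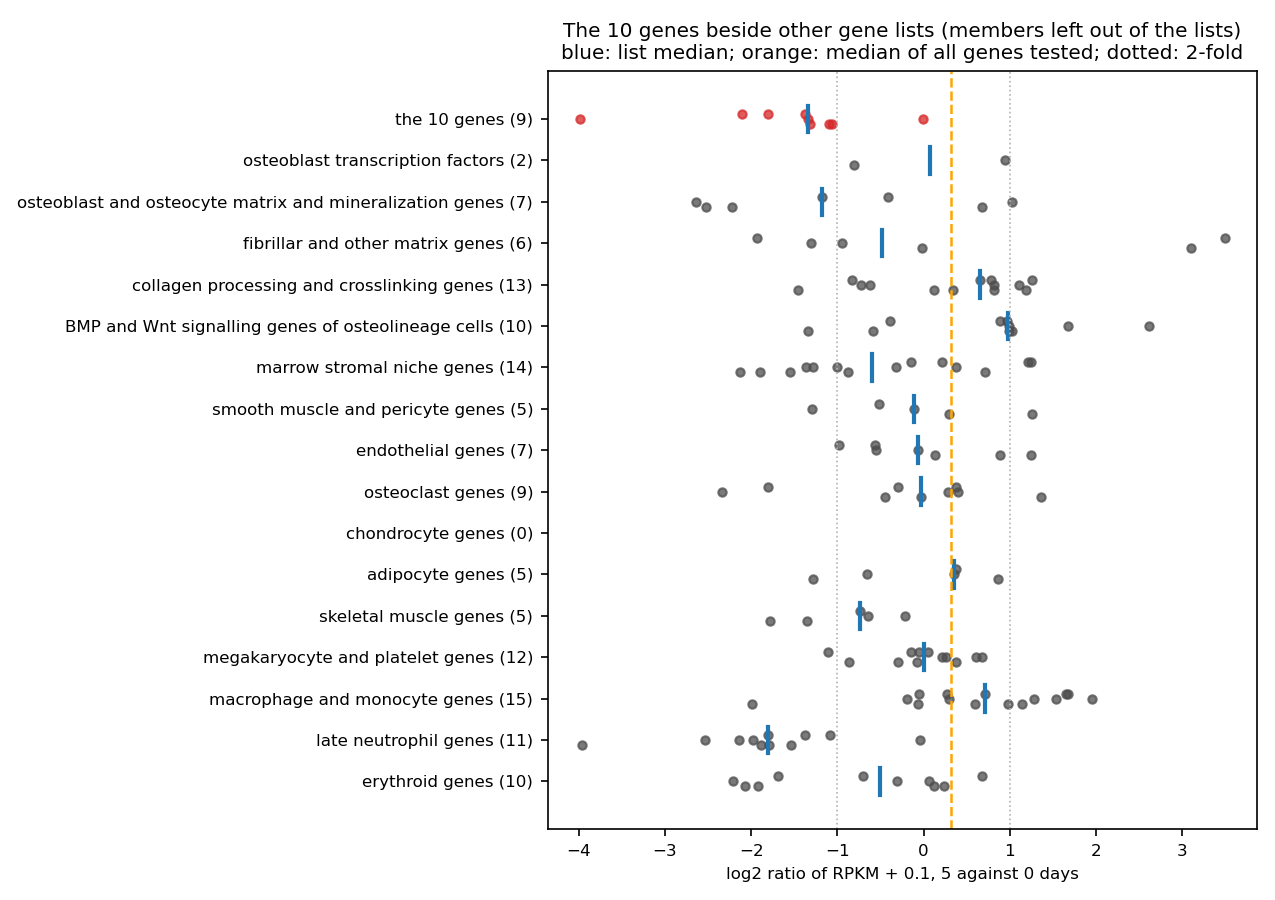
Log2 ratio of RPKM + 0.1 at 5 against 0 days (horizontal axis) for the 10 genes and for each further gene list, 1 point per gene that reached 1 RPKM in either library, with their number in parentheses; the blue bars are list medians, the orange dashed line is the median of all genes counted and the dotted lines are 2-fold. Of the 10 genes 8 lie left of the lower 2-fold line, as do 10 of 11 late neutrophil genes, and the other bone lists spread to both sides.

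Markers of other cells that share these transcripts are given beside the decreases. Of 14 stromal niche genes, 6 were 2-fold or more lower in the 5-day library and 2 higher, with a median of -0.60. Cxcl12, the chemokine by which stromal cells hold haematopoietic stem cells in the marrow, had 15.9, 10.9 and 5.38 RPKM, a log2 ratio of -1.55 (-1.72 to -1.42) at 5 days. In contrast Vcam1, which macrophages also carry, had 29.4, 39.9 and 48.3 RPKM, and Itgav, an integrin subunit, had 2.11, 3.94 and 5.03 RPKM. Lpl (lipoprotein lipase) had 11.1, 12.02 and 14.4 RPKM. The other 5 lower genes, named after their values were seen, were Nt5e with a log2 ratio of -2.13, Cxcl14 with -1.90, Igfbp5 with -1.36, Adipoq with -1.28 and Lepr, the leptin receptor of stromal cells, with -1.002, and the second higher gene beside Itgav was Eng with 1.25. Their part in the decreases of the bone matrix genes was not tested.

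For Acta2, the smooth muscle list offers a comparison. Of its 5 other counted genes 1 was lower and 1 higher at 5 days, with a median of -0.11. Tagln (transgelin) had 2.48, 3.46 and 3.05 RPKM, Mylk had 1.86, 1.61 and 1.73 RPKM and Smtn (smoothelin) had 6.49, 8.94 and 15.6 RPKM. Mcam (CD146), a surface protein of pericytes and endothelial cells, had 2.65, 4.75 and 1.03 RPKM. Myl9, a myosin light chain gene named after its values were seen, had 4.64, 2.50 and 3.21 RPKM, with a log2 ratio of -0.52 (-1.06 to -0.01) at 5 days. The intervals of Tagln and Mylk at 5 days span no change, that of Myl9 lies below it, and Acta2 was at 22.5% of its first level. Of 7 endothelial genes 0 were lower and 1 higher, with a median of -0.06. Pecam1 had 38.1, 33.5 and 41.7 RPKM, Cdh5 had 2.51, 1.57 and 2.40, and Egfl7 had 7.65, 4.33 and 5.20, while Eng had 3.61, 4.64 and 8.70.

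Sparc and Spp1 have other sources in the marrow. Of 12 megakaryocyte genes 1 was lower and 0 were higher at 5 days, with a median of 0.00, or -0.30 with TMM. The lower gene was Clec1b, a receptor of platelets, with 82, 61 and 37 reads and a log2 ratio of -1.11 (-1.75 to -0.57), and Pf4 (platelet factor 4) had a ratio of -0.86 (-1.35 to -0.40), both named after their values were seen. Itga2b had 10.8, 8.34 and 11.2 RPKM and Ppbp had 9.31, 4.11 and 11.2 RPKM at 0, 3 and 5 days, Itgb3 had 10.2, 12.4 and 8.31 RPKM, and Vwf had 66, 51 and 118 reads. Of 15 macrophage and monocyte genes 1 was lower and 6 were higher, with a median of 0.71. Csf1r had 26.7, 49.6 and 85.3 RPKM, Ccr2 had 45.1, 85.9 and 142 RPKM and Ly6c2 had 932, 993 and 1138 RPKM, while Cd14 went the other way with 148, 99.3 and 36.9 RPKM. The part of megakaryocytes and macrophages in the decreases of Sparc and Spp1 was not tested.

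Among osteoclast genes, whose cells resorb bone and also secrete osteopontin, 2 of 9 were lower and 1 higher, with a median of -0.03. Nfatc1 had 20.96, 26.9 and 27.7 RPKM, Tcirg1 had 69.5, 74.7 and 84.9 and Ostm1 had 18.9, 20.6 and 24.4. The lower genes were Mmp9, which neutrophils also express, with 353, 556 and 101 RPKM, and Ctsk (cathepsin K), the main collagenase of osteoclasts, with 5.04, 1.92 and 0.913 RPKM, which was named after its values were seen.

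Genes of other tissues that can come away with marrow were also read. No chondrocyte gene reached 1 RPKM, although Col2a1, the cartilage collagen, had 62, 13 and 7 reads and Col10a1, of hypertrophic cartilage, had 40, 13 and 17. Comp had 7, 5 and 14 reads and Col9a1 had 7, 0 and 0. Skeletal muscle genes were 2-fold lower at 5 days in 2 of 5 with 0 higher and a median of -0.74, and Mylpf, Tnnt3, Tnni2 and Atp2a1 went from 7.68, 3.08, 7.82 and 2.40 RPKM at 0 days to 6.57, 1.80, 3.00 and 1.498 at 5 days. The lower genes were Tnni2 and Acta1, the latter named after its values were seen. Acta1 had 26, 6 and 6 reads, with a log2 ratio of -1.78 (-3.69 to -0.80) at 5 days. Of 5 adipocyte genes 1 was lower, with a median of 0.35 that turned to -0.15 with the length trend removed, and Fabp4 had 14.7, 9.40 and 9.28 RPKM, Cebpa 18.8, 21.6 and 34.3 and Pparg 2.67, 2.99 and 3.44. The part of such tissue in the results was not tested.

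Genes of mature blood cells also differed between the libraries. Of 11 late neutrophil genes 10 were called lower and 0 higher at 5 days, with a median of -1.81 and a summed level of 149972 RPKM at 0 days against 41519 at 5 days. S100a9 alone went from 61729 to 14032 RPKM, and S100a8, Ltf and Ngp were also lower. Of 10 erythroid genes 4 were lower and 0 higher, with a median of -0.51. The globin genes Hba-a1, Hba-a2 and Hbb-b1 were among these, whereas Slc4a1 had 109, 183 and 174 RPKM. These shifts move together with the decreases of the bone matrix genes in the same library, and their part in them was not tested.

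The 5 genes with the pattern most like that of Col1a1 were Dnahc6, Bpgm, Mcam, Fam123a and Slfn4, by the distance between pairs of log2 ratios at 3 and at 5 days, over 3 libraries and among 9442 genes with at least 100 reads at 0 days. Their distances lay between 0.11 and 0.26. Mcam, for example, had 119, 208 and 46 reads, and Bpgm, an enzyme of red cells, had 2127, 3091 and 932. The partner chain Col1a2 was at 0.43, with 30 genes nearer, and Sparc at 0.72, with 96 nearer. In the gene ontology terms that the authors put into the tables, 9 of the 10 genes had entries, and Bglap, Spp1, Ibsp and Alpl shared the term extracellular region part, which 3.84% of all annotated genes carry.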

How the data were processed

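RNA of flushed BM cells was enriched with oligo(dT) beads and made into libraries with the Illumina TruSeq kit, which does not mark strand. The methods name Cufflinks for quantitation, the submitters' processing notes name the genome build mm8, and the aligner is not given in the sources used here. The authors deposited 1 table per pair of libraries, with whole read counts and RPKM. The authors' log2 ratios of these RPKM, and the authors' p-values and false discovery rates (FDR), which come from setting the reads of 1 library against another, were left out. The deposited RPKM equalled the deposited counts divided by gene length and by library total to within 0.001, apart from 18 rows at 0 days and 14 at 3 days with at most 36 reads. The authors list genes without reads at 0.01 RPKM, and these were set to 0 here.

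The 10 genes and the further gene lists were chosen with earlier results of these data known. The 16 lists hold 242 genes, of which 234 had a row, 2 of them by another name. Named genes were the 10 genes, the copy Bglap2 of Bglap, up to 4 genes of each list with the most reads, and the 5 nearest in pattern to Col1a1, with others marked as they appear, and 2 genes that this rule names are not reported here. Genes in several lists count in each. Log2 ratios used a pseudocount of 0.1 RPKM. Alternatives were pseudocounts of 1 and 0.01, TMM (edgeR 4.0.16) and median-of-ratios scaling (DESeq2 1.42.0), scaling without the 100 most abundant genes, summed rows, removal of the trend on gene length (lowess, span 0.3, statsmodels 0.14.6), a fold of 4, a minimum of 5 RPKM and none. The steps were tested on simulated data. Python 3.11.15 and R 4.3.3 were used.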

Additional observations from a re-analysis of the deposited data

How the results depend on the processing

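With 1 library per time point, leaving out a library removes its time point, and no paired analysis was possible because no group has a second replicate. The median log2 ratio of the 10 genes at 5 against 0 days was -1.32, and it became -1.63 with TMM, -1.62 with median-of-ratios scaling, -1.73 with the length trend removed, and -1.52 when the 100 most abundant genes were left out of the library totals. The scalings by construction set most genes to no change. At a fold of 4 the number of lower genes was 2 in place of 8 at 5 against 0 days and 2 in place of 6 at 5 against 3 days, where a fold of 4 is the stricter limit. A pseudocount of 1 RPKM left 6 of the 8. The medians of the gene lists at 5 days moved with scaling and with the length trend too, from -0.48 to -1.29 for the matrix genes and from 0.98 to 0.31 for the BMP and Wnt genes. There were 210 single values over 7 alternatives, and the 30 with summed rows could not move, since each gene had 1 row. With these 30 included, 175 kept their sign inside their counting interval, 24 kept their sign outside it and 11 changed sign, inside it or not. With the length trend removed these were, at 3 days, Col1a2 (-0.20), Bglap (0.15) and Acta2 (0.088), at 5 against 0 days Runx2 (-0.091), and at 5 against 3 days Alpl (-0.070) and Runx2 (-0.29). At 5 against 3 days Alpl and Runx2 were -0.028 and -0.15 with TMM and -0.022 and -0.14 with median-of-ratios scaling, and Runx2 was -0.062 in totals without the 100 most abundant genes. None of these values had been called. Depth limits Bglap and Runx2, with 2 reads at 5 days and 13 reads at 0 days.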
